A study of Mus musculus with 8 samples.

Results

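Imprinted genes are those expressed mainly from the copy inherited from one parent. A list of 40 mouse imprinted genes was matched by symbol to the deposited tables of platelet RNA, and all 40 were found among 55487 genes. The platelets came from 8 male mice aged 13 weeks, of which 4 were labelled Dnmt3a+/- (heterozygous for a de novo DNA methyltransferase gene) and 4 WT littermates, with 1 library per mouse. Blood was taken from the heart, platelets were pelleted from plasma rich in platelets, and beads against Ter119 and CD45 were used to deplete red cells and leukocytes. The labels do not say how the Dnmt3a allele was made, and they name no other allele or agent in either group. RNA was measured as polyadenylated transcripts, so imprinted transcripts without a poly(A) tail, such as small nucleolar RNAs and microRNAs, were outside the measurement.

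The parental choice at an imprinted locus is set by a control region that carries DNA methylation on 1 of the 2 copies. At most loci the methylation is placed in the egg and at a few in sperm, by the de novo methyltransferase encoded by Dnmt3a with its cofactor Dnmt3l, and it is then kept through cell division in the body by Dnmt1 and by zinc finger proteins such as Zfp57. Platelets have no nucleus, and their RNA is what megakaryocytes packed into them. These libraries do not separate the 2 parental copies, so they show how much RNA a locus gave and not which copy it came from. In bulk RNA, fewer cells of a type and less RNA per cell cannot be told apart.

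Depth was 15185218 to 22160394 estimated counts per library. A gene was compared between libraries in CPM, its count relative to the library's total scaled with edgeR's TMM factors, and genes were compared with each other in TPM, the deposited measure that also corrects for transcript length. Dnmt3a itself had 21.1, 22.04, 19.7 and 18.2 CPM in the WT libraries and 9.94, 11.5, 24.2 and 19.5 CPM in the libraries labelled Dnmt3a+/-. In replicates 3 and 4 of the latter its level was within or above the WT range, so the RNA level does not check the label of those libraries, and group names below are those of the labels. The summed CPM of 11 platelet markers, led by Ppbp and Itga2b, was 43500 to 54100, and that of 8 lymphocyte markers was 4.27 to 7.25 CPM, led by Nkg7 (53 to 106 counts per library) and Ptprc (4 to 27), with Cd3e and Cd3g at 0 counts in all libraries. Summed hepatocyte markers were 14.0 to 1520 CPM in WT and 0.618 to 132 CPM in Dnmt3a+/- libraries, and WT replicate 1 held 10500 CPM of erythroid markers against 310 to 885 CPM in the others.

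Gnas, Cd81, Mest, Peg10, Sgce, Copg2, Slc22a3, Tssc4, Inpp5f and Zrsr1 were the imprinted genes present in these platelets. These 10 were at 1 TPM or more in every library (25.0%, against 7.96% of all genes in the tables). Another 5 passed the filter on low counts used for testing, which asks for about 10 counts in at least as many libraries as the smaller group holds, so 15 were tested. A further 18 had counts but stayed under that filter, and 7 had 0 counts in all libraries, which is 17.5% of the list against 66.7% of all genes. With the line at 0.1 TPM 16 genes were present, and with the line at 5 TPM 8. The list mixes well-known imprinted genes with neighbours of such genes. For 9 genes the expressed copy is listed with a tissue condition, such as in placenta, in brain or, for Grb10, outside brain. Of these 9, 5 were at 1 TPM or more in every library. Of the other 31 it was 5, namely 4 of 22 paternally and 1 of 9 maternally expressed genes.

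The start regions of 35 of the 40 genes were found in the RefSeq table (build GRCm38.p6, 250 bases before to 50 after each start). Of these, 4 are shown as examples. Gnas and Mest are abundant genes at loci with a germline control region. Slc22a3 is the 1 gene of its domain at 1 TPM or more in every library, and Slc38a4 had counts unevenly spread over the libraries. CG pairs, the sites that can carry methylation, are in capitals. The Gnas window has the most CG of its 4 starts and lies at chr2:174329756-174330055 on the plus strand, and the Mest window is at chr6:30737803-30738102 on the plus strand. The Slc22a3 window is at chr17:12507655-12507954 and the Slc38a4 window, of its 3 starts the one farthest upstream, at chr15:97055907-97056206, both on the minus strand.
Gnas: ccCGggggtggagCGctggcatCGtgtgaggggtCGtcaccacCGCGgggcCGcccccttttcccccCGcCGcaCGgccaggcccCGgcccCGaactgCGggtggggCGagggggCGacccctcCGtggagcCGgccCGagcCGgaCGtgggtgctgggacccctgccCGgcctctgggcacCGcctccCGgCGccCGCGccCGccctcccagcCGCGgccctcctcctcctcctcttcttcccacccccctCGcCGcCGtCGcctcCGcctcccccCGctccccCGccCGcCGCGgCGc
Mest: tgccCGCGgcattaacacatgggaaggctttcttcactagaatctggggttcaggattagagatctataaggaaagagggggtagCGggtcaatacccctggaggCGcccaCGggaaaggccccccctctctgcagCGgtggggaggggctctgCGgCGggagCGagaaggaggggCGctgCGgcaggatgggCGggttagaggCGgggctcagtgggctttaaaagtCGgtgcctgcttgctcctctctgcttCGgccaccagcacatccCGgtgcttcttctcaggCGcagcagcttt
Slc22a3: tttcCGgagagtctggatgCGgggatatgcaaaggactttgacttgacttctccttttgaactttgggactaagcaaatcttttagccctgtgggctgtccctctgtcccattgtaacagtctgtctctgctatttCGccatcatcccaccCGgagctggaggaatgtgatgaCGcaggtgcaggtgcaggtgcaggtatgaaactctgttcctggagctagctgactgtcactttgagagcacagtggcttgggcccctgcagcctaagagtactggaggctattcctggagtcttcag
Slc38a4: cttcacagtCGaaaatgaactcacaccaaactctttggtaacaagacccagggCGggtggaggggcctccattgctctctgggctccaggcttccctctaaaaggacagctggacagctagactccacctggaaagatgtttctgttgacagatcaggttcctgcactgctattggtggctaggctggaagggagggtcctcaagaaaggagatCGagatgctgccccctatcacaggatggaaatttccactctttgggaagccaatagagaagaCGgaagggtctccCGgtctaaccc
The letters CG occurred 40 times in the Gnas window, 17 times in that of Mest and 5 times each in those of Slc22a3 and Slc38a4. Taking for each gene the start with the most, the 35 genes had a median of 17 CG, against 8 over 27025 mouse genes, and 27 of 35 (77.1%) had 10 or more, against 45.8% of all genes. A line of 10 CG did not separate the genes by level. Of the 8 matched genes at 1 TPM or more in every library 7 had 10 or more, as did 7 of the 7 genes at 0 counts. The exception among the former was Slc22a3. Median CG was 20 in those 8 genes, 15 in the 27 other matched genes and 15 in the 7 at 0 counts. The difference in medians was not tested. Methylation was not measured in these files, and a count of CG is a description of the letters in the window. Whether a window lies in a control region was not looked at.

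Gnas, which encodes the alpha subunit of the stimulatory G protein that raises cyclic AMP, was by far the most abundant. Its TPM was 3780, 3140, 2392 and 2874 in WT and 3364, 2755, 3052 and 2810 in Dnmt3a+/- libraries, a mean of 3047 ± 579 (SD, n = 4) against 2995 ± 278 (SD, n = 4). It ranked 47 of all genes by mean TPM and held 76.3 to 83.5% of the summed TPM of the 40 genes. Gnas is listed as maternally expressed in some tissues, so this share is not one of RNA known to be imprinted in platelets. The groups overlapped fully, with the highest and the lowest value both in WT. Its fitted log2 fold change, Dnmt3a+/- minus WT as throughout, was -0.02 (SE 0.16, edgeR adjusted p = 0.9985). Its protein works with beta and gamma subunits, and Gng11 and Gnb1 were at a mean of 24930 and 80.1 TPM.

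Cd81, a tetraspanin that is imprinted in placenta, was next at 398 ± 37.8 (SD, n = 4) TPM in WT and 403 ± 31.9 (SD, n = 4) in Dnmt3a+/- libraries. Its CPM stayed within 1.28 times between the lowest and the highest library. The fold change was -0.02 (SE 0.09, edgeR adjusted p = 0.9985). The related tetraspanins Cd9 and Cd151 had means of 18820 and 527 TPM.

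Mest, a paternally expressed alpha/beta hydrolase, had 175, 189, 154 and 204 TPM in WT and 256, 207, 200 and 194 TPM in Dnmt3a+/- libraries. On the CPM scale the WT libraries had 347, 333, 337 and 388 and the Dnmt3a+/- libraries 496, 396, 386 and 372. Dnmt3a+/- replicate 1 was the highest, and WT replicate 4 lay above the lowest 2 Dnmt3a+/- libraries. The log2 fold change was 0.23 (SE 0.11, edgeR adjusted p = 0.987). Its unadjusted p of 0.0575 was the smallest of the 15 tested genes. Of all tested genes 31.5% had a larger absolute fold change. Leaving out 1 library moved the fold change of Mest from 0.14, without Dnmt3a+/- replicate 1 (unadjusted p = 0.16), to 0.29, without WT replicate 4 (unadjusted p = 0.0381), and it was not called in any of these fits.

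Peg10, a paternally expressed gene derived from a retrotransposon, was the remaining gene with a mean above 100 TPM. It had 96.9, 156, 123 and 195 TPM in WT and 109, 139, 173 and 187 TPM in Dnmt3a+/- libraries. The spread within each group (a coefficient of variation of 26.3% and 20.7% in CPM) was far above the 0.824% that counting alone would give, and the groups overlapped almost fully. The log2 fold change was 0.06 (SE 0.20, edgeR adjusted p = 0.998).

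**Figure D1:**
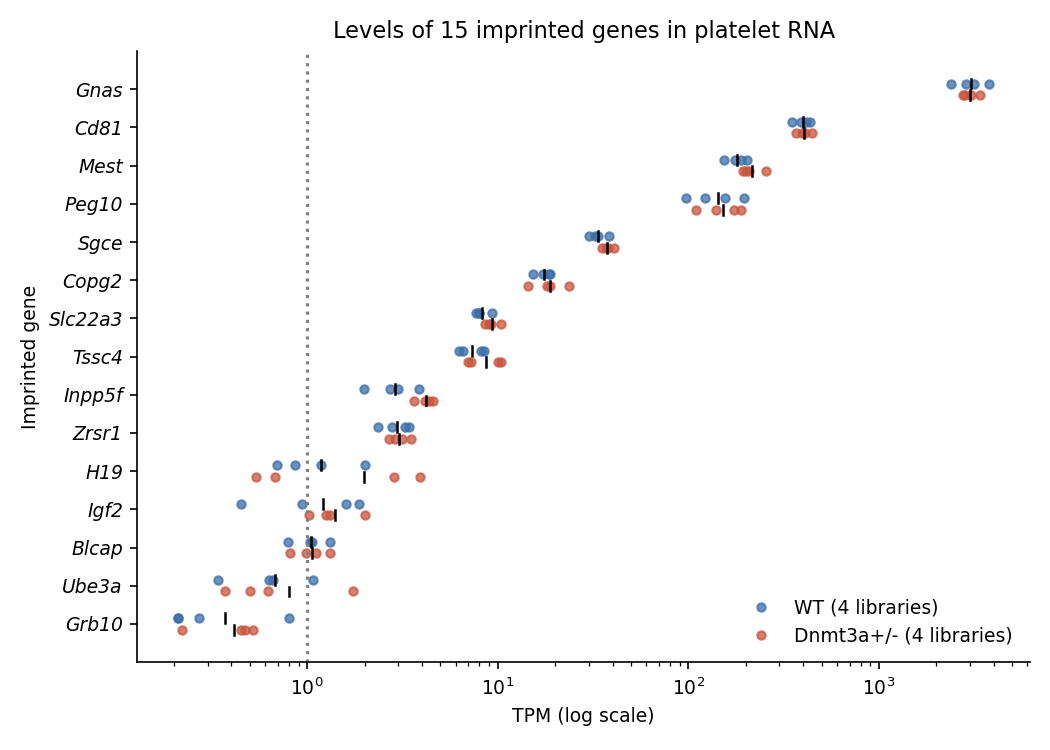
TPM on a log scale of the 15 tested imprinted genes in each WT (blue) and Dnmt3a+/- (red) library. Short black lines are group means and the dotted line is 1 TPM. Levels run from a mean of 3047 TPM for Gnas in WT to 0.373 TPM for Grb10 in WT, and the groups overlap for all 15 genes.

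Sgce, which shares its start region with Peg10 and encodes epsilon sarcoglycan of the dystrophin-associated complex, was at 33.5 ± 3.36 (SD, n = 4) TPM in WT and 37.6 ± 2.15 (SD, n = 4) in Dnmt3a+/- libraries. The annotated ends of the 2 genes are 98 bases apart on opposite strands of chromosome 6, with Sgce at 4674350 to 4747207 and Peg10 at 4747306 to 4760517. In CPM Peg10 ranged 1.93 times between libraries and Sgce 1.33 times. Of their listed neighbours on chromosome 6, Pon2, a paraoxonase, was at a mean of 98.7 TPM, Casd1 at 17.8 and Pon3 at 10.3 TPM, while Ppp1r9a, the neighbour next to Peg10, was at 0.681, Tfpi2 at 0.624 and Asb4 at 0.015 TPM, and Calcr, the calcitonin receptor gene, was at 0 counts in all libraries.

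Copg2, a coat protein subunit of Golgi vesicles, was at 17.5 ± 1.59 (SD, n = 4) TPM in WT and 18.7 ± 3.73 (SD, n = 4) in Dnmt3a+/- libraries. It overlaps Mest tail to tail on the opposite strand, where 912 bases are exon of both, which is 23.1% of Mest's exon bases and 17.8% of Copg2's. The kit marks strand, but no source used here says whether the counting did, so reads from those bases may stand under either gene. The sign for Copg2 depended on the scale, with a log2 fold change of -0.09 (SE 0.12) from counts and 0.09 by limma on log2(TPM + 0.1).

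The Igf2r-Airn locus on chromosome 17 gave a contrast within 1 imprinted domain. Slc22a3 is listed as maternally expressed in placenta, and Igf2r and Airn are listed without a tissue condition. Slc22a3, an organic cation transporter, had 7.94, 9.35, 7.72 and 7.96 TPM in WT and 9.03, 10.4, 8.55 and 9.25 in Dnmt3a+/- libraries. These were among the steadiest values, with a coefficient of variation of 5.56% and 7.76% in CPM against 4.69% from counting alone. Igf2r, the receptor that clears Igf2 and carries lysosomal enzymes, lies 174701 bases away and had 3 to 16 counts per library, at most 0.42 TPM. Airn, the noncoding RNA that runs through Igf2r, had 0 to 4 counts, and Slc22a2, a sister transporter, 1 count in all. The other mannose 6-phosphate receptor, M6pr, was at a mean of 39.4 TPM. At its end Slc22a3 shares 420 exon bases (9.31% of its exons) with Plg on the opposite strand, a liver gene at 0.254, 3.73, 26.6 and 20.9 CPM in WT and 2.63, 0, 2.42 and 0 CPM in Dnmt3a+/- libraries. Slc22a3 itself had 24.7, 25.9, 27.0 and 23.8 CPM in WT and 28.3, 30.8, 25.8 and 26.8 CPM in Dnmt3a+/- libraries. The part of Plg reads in these values was not tested.

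The Kcnq1 domain of chromosome 7 was split in the same way. Cd81, Tssc4 and Ascl2 are listed as maternally expressed in placenta, and Cdkn1c, Phlda2 and Kcnq1ot1 without a tissue condition. Cd81 and its neighbour Tssc4, 1314 bases apart, were present, the latter at 7.36 ± 1.08 (SD, n = 4) TPM in WT and 8.63 ± 1.77 (SD, n = 4) in Dnmt3a+/- libraries. Nap1l4 of the same domain was at a mean of 13.4 TPM. Cdkn1c, which blocks cyclin-dependent kinases, had 0 to 11 counts per library, Phlda2, a placental growth regulator, 0 to 4, and Kcnq1ot1, the noncoding RNA that silences the domain, 0 to 5. Ascl2, a transcription factor of the placenta, had 0 counts in all 8 libraries, and the potassium channel gene Kcnq1 0 to 4. A count of 0 allows up to 3 counts, or 0.135 to 0.198 CPM by library, for counting error only.

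Inpp5f, a phosphoinositide phosphatase with a brain variant expressed from the paternal copy, had 7.19, 10.9, 10.5 and 10.7 CPM in WT and 12.1, 12.7, 12.2 and 10.8 CPM in Dnmt3a+/- libraries. WT replicate 1 was the lowest, and only WT replicate 2 lay above the lowest Dnmt3a+/- library. The log2 fold change was 0.28 (SE 0.16, edgeR adjusted p = 0.998), and 0.16 without WT replicate 1. Zrsr1, a paternally expressed copy of a splicing factor gene, was at 2.95 ± 0.486 (SD, n = 4) TPM in WT and 3.05 ± 0.357 (SD, n = 4) in Dnmt3a+/- libraries, and its spread in CPM (12.7% and 16.5%) was close to the 11.8% from counting. It lies within the span of Commd1, a gene on the opposite strand that shares 412 of its exon bases (9.17%) and was at a mean of 6.76 TPM.

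Retrogenes, copies made from an RNA, stood in different relations to their parent or related genes. Zrsr1 was above its X-linked parent Zrsr2, which had a mean of 0.556 TPM. Mcts2 had 3 counts in all libraries together against a mean of 1.52 TPM for its parent Mcts1. Nap1l5 had 1 count in all, while Nap1l1 and Nap1l4, listed genes of the same family, were at a mean of 265 and 13.4 TPM. Which gene Nap1l5 was copied from was not looked at. Reads shared between such copies can be divided differently by another counting, so these levels are uncertain.

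H19 and Igf2, the noncoding RNA and the growth factor that share enhancers and a control region methylated in sperm, were both low and uneven. H19 had 53, 30, 13 and 25 counts in WT and 75, 18, 8 and 110 in Dnmt3a+/- libraries. In CPM its lowest and highest libraries differed 10.2 times, the widest range of the 15, and Dnmt3a+/- libraries held both the highest 2 (4.94 and 4.77 CPM) and the lowest (0.485 CPM). Its log2 fold change of 0.62 was the largest of the 15 but had an SE of 0.64 (edgeR adjusted p = 0.998). It was 0.22 without Dnmt3a+/- replicate 4, 0.25 without Dnmt3a+/- replicate 1, 0.37 without WT replicate 3 and 1.07 without WT replicate 1. The libraries high in H19, Dnmt3a+/- replicates 1 and 4, also had the highest summed heart muscle markers, 4.87 and 3.73 CPM against 0.846 to 2.54 in the others. Tnnt2, the most abundant marker, was at 1.51 and 0.91 CPM there and at 0.716 to 1.27 CPM in the others. Myl2 and Actc1 had at most 28 and 26 counts in any library, and Nppa was at 0. WT replicate 1, next in H19 at 3.37 CPM, had a marker sum of 1.53 CPM. The part of these markers in the result was not tested. Igf2 had 3.75, 2.59, 2.94 and 1.43 CPM in WT and 4.08, 2.10, 4.48 and 3.34 CPM in Dnmt3a+/- libraries, with a log2 fold change of 0.38 (SE 0.31, edgeR adjusted p = 0.998), which was 0.18 without WT replicate 4, 0.25 without Dnmt3a+/- replicate 3 and 0.58 without WT replicate 1. The 2 did not take the same order, as Dnmt3a+/- replicate 3 was the highest in Igf2 and the lowest in H19. Most of Igf2's exon bases (62.8%) are shared with Gm49394, an annotated gene on the same strand that overlaps it.

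**Figure D2:**
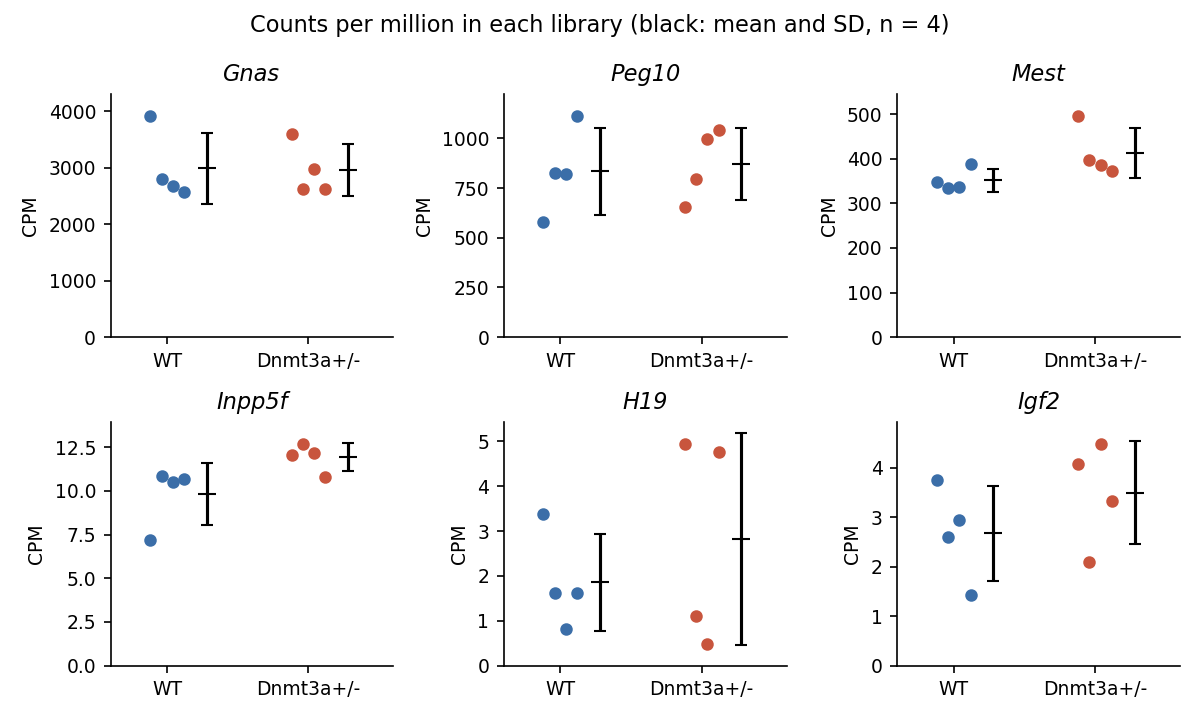
CPM in each library for 6 imprinted genes, with WT in blue, Dnmt3a+/- in red, points in the order of the replicate number, and the mean and SD of 4 libraries in black. All axes start at 0, and H19 is the most uneven, from 0.485 to 4.94 CPM.

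The remaining tested genes were near the filter. Blcap, a small membrane protein gene that holds Nnat in an intron, was at 1.05 ± 0.212 (SD, n = 4) TPM in WT and 1.06 ± 0.215 (SD, n = 4) in Dnmt3a+/- libraries, while Nnat, a neuronal proteolipid gene, had 0 to 11 counts. Ube3a, the ubiquitin ligase whose loss in neurons causes Angelman syndrome, had 12 to 35 counts per library and a log2 fold change of -0.14 (SE 0.34), the lowest of the 15. Grb10, an adaptor that damps insulin signalling, had 10 to 33 counts and a log2 fold change of 0.07 (SE 0.33). None of the 3 differed between groups by more than its SE.

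In 3 imprinted domains nearly all of the listed genes had few or no counts. Of the 4 genes of the Dlk1-Meg3 domain, Mirg was at 0, Dlk1 had 1 count in all, Meg3 had 6 in 2 libraries and Rian had 13, of which 10 in Dnmt3a+/- replicate 4. In the domain of Prader-Willi syndrome, where Ube3a was the only one of 7 genes tested, Magel2, Mkrn3 and Peg12 were at 0, Ndn had at most 3 counts, Snrpn at most 4 and Snurf 1. That 1 count was listed as 1.41 TPM because the Snurf transcript is short and its 216 exon bases all lie inside Snrpn, so a TPM of that size is no sign of presence. In the Peg3 domain Usp29 and Zim1 were at 0 and Peg3, a zinc finger gene, had 0 to 8 counts. Plagl1, a zinc finger gene of fetal growth, had 16 and 10 counts in Dnmt3a+/- replicates 1 and 4, at most 6 in WT libraries and 0 in Dnmt3a+/- replicates 2 and 3 and WT replicate 4. Impact, a regulator of translation, had 1 to 16 counts and reached 1.19 TPM only in WT replicate 2.

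Slc38a4, a paternally expressed amino acid transporter, was singled out after its values were seen. It had 3, 21, 84 and 73 counts in WT and 4, 0, 1 and 0 in Dnmt3a+/- libraries, and stayed under the filter. WT replicate 1, at 3 counts, lay below Dnmt3a+/- replicate 1, at 4, so the groups overlapped. The 14 hepatocyte markers, led by Alb and Mup3, summed to 14.0, 327, 1516 and 1165 CPM in WT and 94.4, 0.618, 132 and 0.867 CPM in Dnmt3a+/- libraries. The same 3 WT libraries were high in both, and no hepatocyte marker was at 0 in every library. Of these markers 11 were tested, and all 11 had a negative fold change with an unadjusted p under 0.05 by edgeR. Over all tested genes 362 (4.92%) had such a p, 235 of them lower. The 11 markers were highest in the same WT libraries, replicates 3 and 4, so they are not 11 separate results. None of them passed the adjusted threshold (smallest edgeR adjusted p = 0.647). The part of hepatocyte RNA in the Slc38a4 counts was not tested. With no filter, Slc38a4 was lower in Dnmt3a+/- libraries with a log2 fold change of -5.13 (edgeR adjusted p = 4.329e-05), the only one of the 40 genes called in a setting where 246 genes (1.33% of those tested) were called lower. Without WT replicate 1 it passed the filter and was called (log2 fold change -5.55, adjusted p = 0.0156), among 134 genes lower (1.74%). It passed only through the WT libraries in which it was high, so it had to differ there, and this call is given as a description. In the other 5 settings in which it was tested the fold change was -6.80 to -4.66 with an adjusted p of 0.123 to 0.999, and in the remaining settings it was under the filter.

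**Figure D3:**
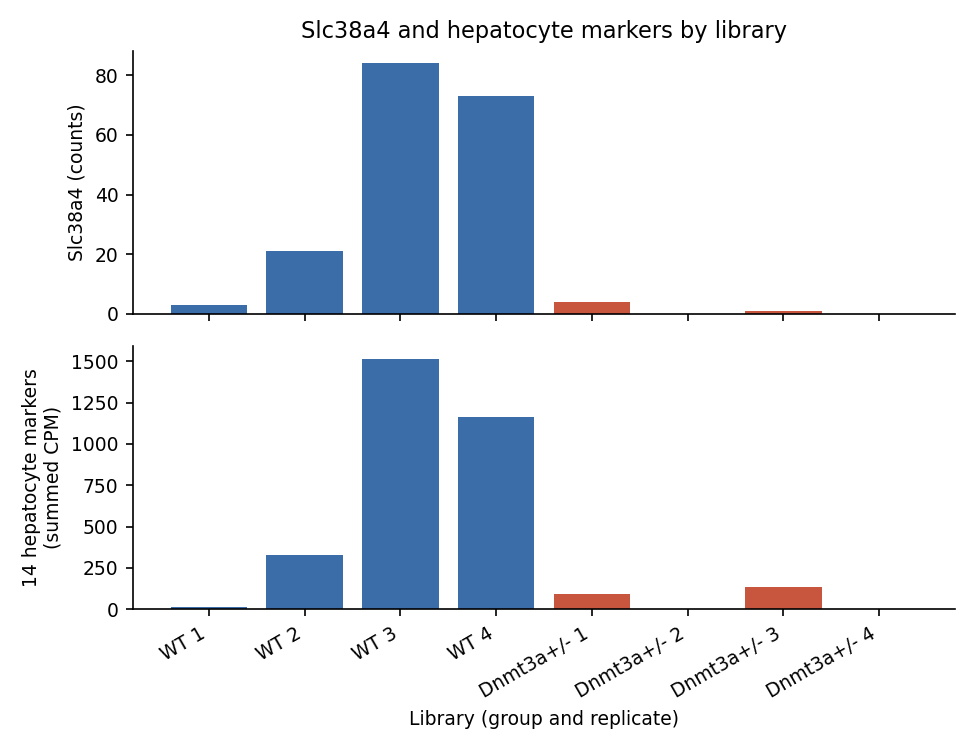
Slc38a4 counts (top) and the summed CPM of 14 hepatocyte markers (bottom) in each library, WT in blue and Dnmt3a+/- in red, both axes from 0. WT replicates 2, 3 and 4 carry nearly all of Slc38a4 (21, 84 and 73 counts) and the highest marker sums (327, 1516 and 1165 CPM).

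Across the comparison of Dnmt3a+/- with WT, no imprinted gene of the 15 tested changed by edgeR's quasi-likelihood test with Benjamini-Hochberg adjustment over 7362 genes, where 0 genes (0.0%) were called. At an unadjusted p under 0.05 there were 0 of the 15, against 362 of all genes (4.92%). DESeq2 called 0 of the 15 and 9 genes in all, and limma on log2(TPM + 0.1) called 0 and 0. For 0 of the 15 were the 4 values of each group apart, against 187 genes (2.54%). The 15 fold changes ran from -0.14 (Ube3a) to 0.62 (H19), 9 above and 6 below 0, with a median of 0.07 against -0.005 over all tested genes. On the deposited TPM scale 14 of 15 were above 0 (all but Gnas), with a median of 0.17 against 0.03 for all genes, and with upper-quartile factors 11 of 15 were. The size of difference that could be seen varied with the gene. The SE ran from 0.09 (Cd81) to 0.64 (H19) among the 15, with a median of 0.22 over all tested genes. The mice within a group are separate animals, so the errors include differences between mice.

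**Figure D4:**
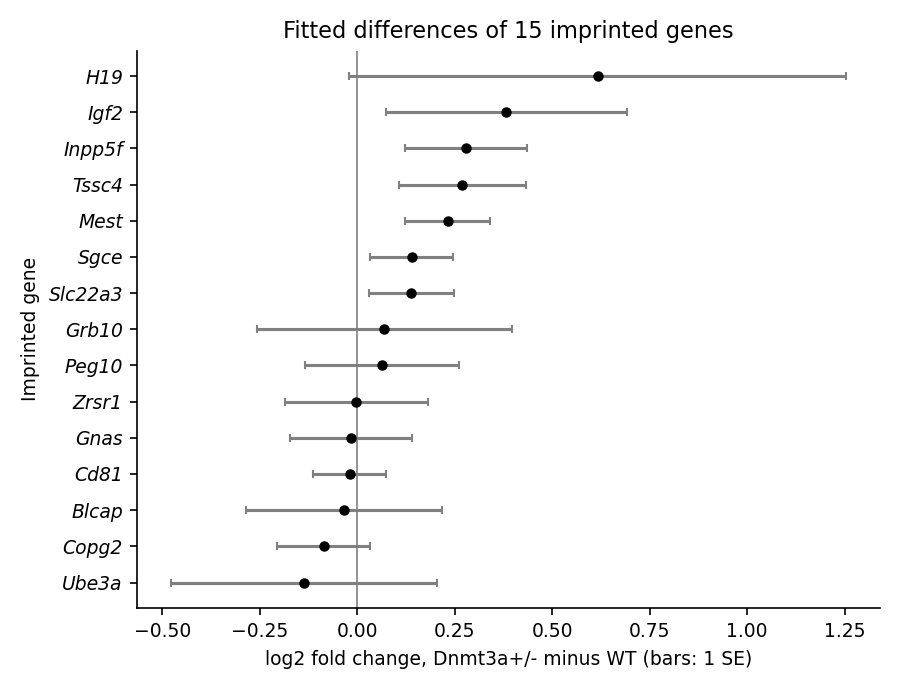
Log2 fold change (Dnmt3a+/- minus WT, from edgeR) of the 15 tested imprinted genes, with bars of 1 SE. Values lie between -0.14 and 0.62, and the widest bar is that of H19 (SE 0.64).

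Among 52 further imprinted or neighbouring genes, 51 were in the tables, 12 at 0 and 11 at 1 TPM or more in every library. Of these 51, 20 were tested, 8 with a positive and 12 with a negative fold change, a median of -0.08 and none called. Beside those named above, those over 10 TPM were Peg13, a brain imprinted noncoding RNA, at a mean of 52.3 TPM and Trappc9, the vesicle transport gene in whose span it lies, at 25.6 TPM. Peg13 had 215 ± 7.94 (SD, n = 4) CPM in WT and 218 ± 6.35 (SD, n = 4) in Dnmt3a+/- libraries. Of 25 genes that set, read or keep imprints, 11 were tested, 6 with a positive and 5 with a negative fold change and none called. Dnmt3l, Ctcfl, Dppa3 and Nlrp2 were at 0. Dnmt3a was the most abundant of them at a mean of 7.15 TPM and had a log2 fold change of -0.31 from counts (SE 0.25, adjusted p = 0.998 by edgeR), while its mean TPM was 7.01 in WT and 7.29 in Dnmt3a+/- libraries, so its direction depended on the scale. It stood above Ehmt2 at 6.40, Ctcf at 3.69 and Trim28, the partner of Zfp57, at 2.45 TPM. Dnmt1 was at 0.223 TPM and Zfp57 at 0.0513 TPM.

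The ratio of a gene's count to its TPM gives the mean length of the transcripts that the authors' quantification assigned to it, once scaled on genes with 1 annotated transcript, for which 97.7 to 98.6% of 176 to 215 genes per library came within 2% of the annotated length (the same genes set the scale). For Peg10 it was 6564 to 6576 nucleotides (nt) in all 8 libraries, against an annotated Peg10-203 of 6567 nt. All 3 annotated Peg10 transcripts lie between 6567 and 6667 nt, so this length is a weak guide to which was used. For Slc22a3 it was 3502 to 3508 nt, where Slc22a3-201 has 3504 nt and the other annotated transcript 4127 nt, and for Blcap 2047 to 2058 nt, near Blcap-202 of 2056 nt. Gnas is annotated with 24 transcripts of 480 to 3947 nt, of which 8 exceed 3000 nt. Its mean length by this ratio was 1156 to 1296 nt in all libraries. Mest lay at 2226 to 2373 nt, Cd81 at 1207 to 1299 nt and Sgce at 1606 to 1687 nt. Inpp5f was the least even of those above 100 counts in every library, with 4041, 4527, 3880 and 3277 nt in WT and 3258, 3426, 3901 and 2879 nt in Dnmt3a+/- libraries. Its TPM was 2.89 ± 0.765 (SD, n = 4) in WT and 4.18 ± 0.417 (SD, n = 4) in Dnmt3a+/- libraries, where the CPM was 9.81 ± 1.76 (SD, n = 4) and 11.9 ± 0.801 (SD, n = 4), and limma on log2(TPM + 0.1) gave it a log2 fold change of 0.55 with an unadjusted p of 0.0324 (adjusted p = 0.9997). The assignment of reads to transcripts of 1 gene is an estimate of the quantification, and a mean length can come from more than 1 mix.

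**Figure D5:**
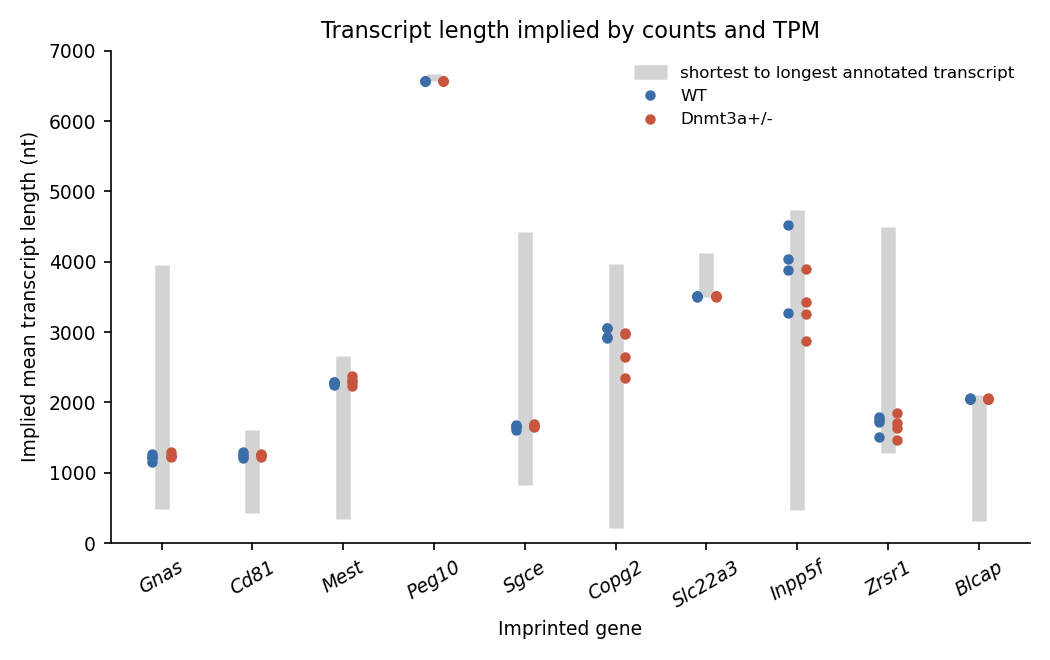
Mean transcript length (nt) implied by counts and TPM for 10 imprinted genes in each WT (blue) and Dnmt3a+/- (red) library, with grey bars from the shortest to the longest annotated transcript. Peg10, Slc22a3 and Blcap sit within a few nt of 1 value in all libraries, while Inpp5f spans 2879 to 4527 nt.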

How the data were processed

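Platelet RNA of 8 mice was measured by stranded sequencing of polyadenylated RNA, per the labels' protocols. The submitters' processing notes name the build mm10 and the tools RSEM, STAR, cutadapt and DESeq2, without roles or versions, and no annotation or strand setting. The deposited files hold estimated counts, written as whole numbers, and the authors' TPM values. All columns were used. Counts were rounded (no value changed) and tested with edgeR 4.0.16 (TMM, filterByExpr with a minimum count of 10 and minimum total of 15, quasi-likelihood test, Benjamini-Hochberg adjustment over all tested genes, threshold 0.05). SEs are the fold change over the root of the F statistic. Groups followed the genotype label, with 4 libraries each and no covariate. DESeq2 1.42.0, limma 3.58.1 and the settings under the closing section were alternatives. The fit was also run on counts simulated from its own model, with changes larger than any fitted here for the 15 tested genes. That run does not show how well changes as small as theirs would be found. Gene spans and transcripts came from the GENCODE annotation (GRCm38). Every one of the 40 genes was accounted for, with most detail for those with a mean of 10 TPM or more; further listed genes were named where above 10 TPM or as parents, neighbours or partners. The genes, lists, printed windows and the line of 10 CG were chosen with earlier results of these data known. Of the marker lists, summed CPM in WT and Dnmt3a+/- libraries was 9.44 to 26.0 and 5.07 to 15.9 for adipocyte, 25.4 to 35.1 and 23.9 to 29.7 for endothelial, 2.41 to 17.5 and 1.39 to 10.8 for stromal, 4.27 to 7.25 and 4.91 to 6.85 for lymphocyte, 0.26 to 1.72 and 0.0433 to 0.263 for neutrophil, and 3570 to 6590 and 3350 to 5360 for monocyte and macrophage markers. The last sum was nearly all Lyz2 (6589 of 6593 CPM in WT replicate 1), and Mrc1, the next marker, was at most 7.08 CPM.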

Additional observations from a re-analysis of the deposited data

Results flagged for a closer look

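Among 16 imprinted genes (the 15 tested and Slc38a4), each looked at in both groups of 4 libraries, 1 of 32 groups held a library far from the others by Dixon's test, where chance marks about 1 in 20. Inpp5f in WT replicate 1 was at 7.19 CPM, against 10.5 to 10.9 CPM in the other WT libraries. WT replicate 1 is also the library with 10500 CPM of erythroid markers, and their part in the value was not tested.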

How the results depend on the processing

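The count of 0 called genes in edgeR became 250 with no filter on low counts, 9 with DESeq2, 1 with a robust fit, 0 to 135 when 1 library was left out (135 without WT replicate 1) and 3 without WT replicates 1 and 3 together. The count of called imprinted genes, 0, became 1 (Slc38a4) with no filter and was 0 to 1 when 1 library was left out, with 1 without WT replicate 1; it was 0 in the other settings. The median fold change of the tested imprinted genes stayed above 0 in all settings, with 0.04 to 0.14 when 1 library was left out. The count at 1 TPM or more in every library was 10 without any 1 library and 16 at a line of 0.1 TPM. Of the 15 tested genes 7 kept the sign of their fold change in every setting in which they were tested (H19 was left out by the strict filter) and 8 did not, all of the latter with a fold change between -0.14 and 0.07. With upper-quartile factors Gnas was at 0.0032 and Zrsr1 at 0.0236, and with no filter Zrsr1 was at 0.0117. With limma on log2(TPM + 0.1) Cd81 was at 0.0212, Copg2 at 0.0854, Zrsr1 at 0.053, Blcap at 0.0063 and Ube3a at 0.0949, and on log2(TPM + 1) Cd81 was at 0.0212, Copg2 at 0.0821, Zrsr1 at 0.0395, Blcap at 0.0034 and Ube3a at 0.069. Without WT replicates 1 and 3 together Gnas was at 0.145 and Peg10 at -0.1479. When 1 library was left out Gnas ran from -0.1141 to 0.1404, Cd81 from -0.0705 to 0.0402, Peg10 from -0.0762 to 0.2397, Zrsr1 from -0.081 to 0.0986, Blcap from -0.1592 to 0.0742, Ube3a from -0.3518 to 0.0517 and Grb10 from -0.0802 to 0.2543. Of the genes that kept their sign, H19 ran from 0.22 to 1.07, Igf2 from 0.18 to 0.58, Inpp5f from 0.16 to 0.33, Mest from 0.14 to 0.29, Sgce from 0.08 (without WT replicate 2) to 0.21 (without WT replicate 1), Slc22a3 from 0.08 (without Dnmt3a+/- replicate 2) to 0.18 and Tssc4 from 0.18 to 0.36 when 1 library was left out. The cause of these changes was not tested. With the replicate number as a block edgeR called 0 genes and 0 imprinted genes, the imprinted genes' median was 0.08 and H19 was at 0.37. At an unadjusted p under 0.05 by edgeR there were 494 genes, against 362 without the block. Deviations of libraries with the same number correlated at 0.14, 0.13, 0.09 and -0.05, and of those with different numbers at -0.21 to 0.15. The labels do not say that the numbers mark litters, so they were not taken as pairs. These correlations do not settle whether they are. Low counts limit H19, Igf2, Blcap, Ube3a, Grb10 and all 18 genes under the filter, and the bound on a count of 0 covers counting error only.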
